A study of Sus scrofa with 8 samples.

Results

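The genes *CHI3L1*, *CRTAC1*, *SLPI* and *CD44* are 4 of the 18975 genes measured by RNA-seq in pig heart. They were chosen by their FPKM, for a high level in both libraries of Tibetan pigs raised at highland and a low level elsewhere, so their levels in that group are a description, with no test. Hearts came from male pigs aged 6 months in 4 groups, Tibetan pigs raised at highland (TH) and at lowland (TL) and Yorkshire pigs raised at highland (YH) and at lowland (YL). The study asked which genes are involved in the adaptation of Tibetan pigs to high altitude. Each group had 2 libraries, and per the study's methods each library was made from RNA of 4 pigs pooled in equal amounts. The spread between libraries is therefore that of pools and not of single animals, and breed, place and rearing cannot be separated beyond these 4 groups. *CHI3L1* and *CRTAC1* followed the pattern they were chosen for under every scaling tried. *CD44* followed it in part. It was highest in TH by FPKM, but YH2 reached 42.6 FPKM, and the order turned when libraries were scaled to equal FPKM sums. *SLPI* did not follow the pattern. *SLPI* was as high in TL as in TH, and is described here as a gene that was high in Tibetan pigs.

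All 4 genes act at or outside the cell surface. *CHI3L1* encodes a secreted relative of the chitinases that binds chitin but has no enzyme activity, and macrophages, neutrophils and chondrocytes are known to make it. *CRTAC1* encodes a secreted matrix protein first known from cartilage, and in the nervous system it acts as an antagonist of the Nogo receptor. *SLPI* encodes a secreted inhibitor of neutrophil elastase and related serine proteases, made by epithelia and by leukocytes. *CD44* encodes the main cell surface receptor for hyaluronan, a sugar polymer of the extracellular matrix, and is known to rise in injured and inflamed tissue.

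Reads on genes ranged from 15686819 to 26722605 per library, and levels are given as FPKM, fragments relative to the length of the transcript and to the size of the library. Summed FPKM ranged from 1563940 in YL2 to 8559104 in TH1, so the scaling of the libraries bears on ratios between them, large as well as small. The labelled tissue was checked against its markers. All 10 cardiomyocyte genes found in the table were tested, and their summed level was 14895 FPKM or more in every library. YL2 also held kidney genes at a summed 4513 FPKM, against 17.3 or less in each of the other 7 libraries, and the fitted changes of the 4 genes against YL are therefore also given without it. In whole tissue, fewer cells of a type and less RNA per cell cannot be told apart.

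*CHI3L1* (ENSSSCG00000015476) lies on chromosome 9, from 125344017 to 125353610 in Sscrofa10.2. TH1 and TH2 held 11.3 and 10.1 FPKM, TL1 and TL2 0.137 and 0.0987, YH1 and YH2 0.762 and 0.728, and YL1 and YL2 0.117 and 0.431. TH stood above every other library, YH came next, and TL and YL overlapped. The lower TH library was 13.3 times the highest other library, YH1, and this ratio was 8.50 in reads per 1000000 reads on genes (RPM) and 3.68 with equal FPKM sums. The mean of TH was 14.4 times that of YH and 90.8 times that of TL (n = 2 each). *CHI3L1* rested on 801 reads in TH and 110 in the other 6 libraries together, of which 4 to 6 fell in each of TL1, TL2 and YL1.

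A smaller step of *CHI3L1* lay between highland and lowland Yorkshire pigs. *CHI3L1* and *CRTAC1* entered the genes tested, those with at least 1 FPKM in 2 libraries, only through TH, so their fitted changes are a description, with no test. Both YH libraries were above all 4 lowland libraries, with the lower YH library at 1.69 times YL2, the highest of them. Without YL2 the lower YH library was 5.32 times the highest lowland library. Non-overlap of this kind was seen in 10.5% of the 11913 genes tested, or 17.8% without YL2, and for *CHI3L1* it was lost when each library was scaled to the same FPKM sum (log2 ratio -0.13). In YH *vs*. YL the log2 fold change, fitted with limma to log2(FPKM + 1), was 0.46 (standard error 0.21), and 0.64 without YL2. The pseudocount of 1 understates changes at such low levels, where the ratio of the means was 2.72. With a pseudocount of 0.1 the log2 fold change was 1.32.

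*CRTAC1* (ENSSSCG00000026089) is annotated on the unplaced scaffold JH118839.1, from 75578 to 126482. TH1 and TH2 held 7.02 and 6.74 FPKM, TL1 and TL2 0 and 0.0235, YH1 and YH2 0 and 0.129, and YL1 and YL2 0.0356 and 0.118. The TH libraries were close to each other and far above the rest. YH overlapped with TL and with YL. Both TL libraries lay below both YL libraries, on 1 read in TL and 7 in YL. The lower TH library was 52.3 times the highest other library, YH2, or 25.5 times in RPM and 10.9 times with equal FPKM sums. There were 208 and 209 reads of *CRTAC1* in the TH libraries, and 14 in the other 6 together. TL held 1 read in all, and the ratio of TH to TL in RPM was 403, with an exact 95% interval for counting error of 71.98 to 15966. The interval leaves out the spread between libraries and is no test, since TH served to choose the gene. A count of 0, as in TL1 and YH1, allows up to 3 reads.

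A second gene model carries the name *CRTAC1* (ENSSSCG00000010530, chromosome 14, 118746908 to 118766987), and it is not counted among the 4 genes. TH1 and TH2 held 2.77 and 6.46 FPKM, both TL libraries 0, YH1 and YH2 0 and 0.133, and YL1 and YL2 0.123 and 0.205. The order of the groups was that of the scaffold model, with TH above all others, but the TH libraries differed 2.33-fold from each other. It held 80 reads in TH and 6 in the other libraries, and TH was 25.8-fold above a limit of 3 reads over TL. For the 80 reads in TH against 0 in TL, the exact 95% lower limit of the ratio in RPM, for counting error only, was 20.5. How reads shared by both models were assigned is not given in the sources used here, so the split between them is uncertain.

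*SLPI* (ENSSSCG00000022913) lies on chromosome 17, from 53167237 to 53169798. TH1 and TH2 held 135 and 113 FPKM, TL1 and TL2 124 and 135, YH1 and YH2 11.3 and 24.1, and YL1 and YL2 13.97 and 22.5. By FPKM the groups of the same breed overlapped, and the breeds did not overlap at either altitude. In RPM both TL libraries (73.3 and 72.3) were above both TH libraries (50.1 and 62.5). The lowest Tibetan library was 4.68 times the highest Yorkshire library, YH2, and the ratio stayed above 1 under every scaling tried (log2 ratio 0.13 with equal FPKM sums, 1.64 in RPM and 2.11 with median-ratio scaling). Tibetan libraries were all above Yorkshire libraries in 4.57% of the genes tested, or 8.07% without YL2. They were at least 4 times above in 0.159% of the genes tested, or 19 genes, and in 45 genes without YL2. TH served to choose *SLPI*, so the TH part of this order was built in, and the shares are no test of it. Within its library, *SLPI* was above 95.5% to 96.2% of the tested genes in Tibetan pigs and above 69.5% to 82.9% in Yorkshire pigs.

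*CD44* (ENSSSCG00000013297) lies on chromosome 2, from 28156391 to 28374853. TH1 and TH2 held 75.5 and 81.1 FPKM, TL1 and TL2 11.2 and 15.95, YH1 and YH2 13.0 and 42.6, and YL1 and YL2 17.0 and 15.96. TH was above all others, but YH2 stood between TH and the remaining 5 libraries and YH1 lay within the range of TL. The lower TH library was 1.77 times YH2, and this ratio was the smallest of the 3 genes that were high in TH. It was 1.16 in RPM, and with equal FPKM sums TH1 was below YH2 (log2 ratio -1.25). The YH libraries differed 3.29-fold. A ratio of 3 or more between them was found in 0.452% of the 3758 genes with at least 10 FPKM in both. *CD44* had the most reads of the 4 genes, 6125 in TH and 5558 in the other 6 libraries, with 583 in YH1 and 2079 in YH2. Forms of *CD44* that differ by splicing are not separated in a table by gene.

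**Figure D1:**
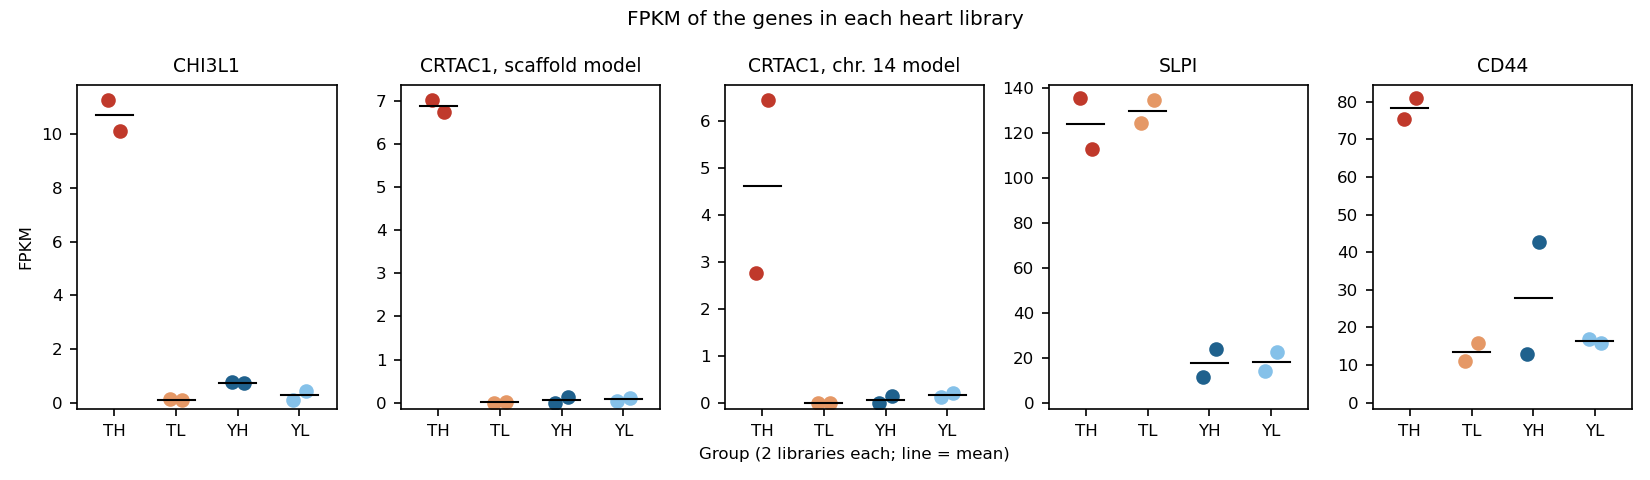
FPKM (vertical axis, linear, a separate scale for each panel) of *CHI3L1*, both gene models named *CRTAC1*, *SLPI* and *CD44* in the 2 libraries of each group (points), with the mean of the group as a line. *SLPI* was at 113 FPKM or more in all 4 Tibetan libraries and at 24.1 or less in all 4 Yorkshire libraries, while *CD44* in YH2 reached 42.6; the order of *CD44* in TH1 and YH2 turned with equal FPKM sums.

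Because TH served to choose the genes and *CHI3L1* and *CRTAC1* passed the filter only through it, tests were read for *SLPI* and *CD44* in TL *vs*. YL and YH *vs*. YL, which gave 4 tests. A call asked for an adjusted p below 0.01 with a log2 fold change above 1 in size. None of the 4 was called with limma, and 1 had an unadjusted p under 0.05 (8.94% of all genes did in TL *vs*. YL). *CD44* was also chosen for a low level outside TH, so the lack of a call among those groups is no result about it. Over all 11913 genes the same rule called 0.00839% in TL *vs*. YL, which is 1 gene, and 0% in YH *vs*. YL, where 711 genes (5.97%) had an unadjusted p under 0.05. These counts rose to 97 and 69 with equal FPKM sums, and to 305 in each without YL1, when YL is YL2 alone.

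The test closest to the threshold was *SLPI* in TL *vs*. YL, the breeds at lowland. Its log2 fold change was 2.80 (standard error 0.38, limma adjusted p = 0.143), and the ratio of the means was 7.10. Without YL2 the log2 fold change was 3.12 (limma adjusted p = 0.092). Over all alternatives the adjusted p ranged from 0.0217 to 0.715, so *SLPI* was not called under any of them, although both TL libraries were above both YL libraries. The lower TL library was 5.52 times the higher YL library, 8.90 times YL1 alone, and 2.51 times the higher YL library with equal FPKM sums. A gap of 4 times or more between TL and YL was found in 0.588% of the genes tested, and in 1.89% without YL2. In YH *vs*. YL, *SLPI* differed by -0.09 (standard error 0.38, limma adjusted p = 0.961), and by 0.23 without YL2.

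For *CD44* the log2 fold change was -0.28 in TL *vs*. YL (standard error 0.50, limma adjusted p = 0.902) and 0.50 in YH *vs*. YL (standard error 0.50, limma adjusted p = 0.821), and without YL2 it was -0.33 and 0.45. The value in YH *vs*. YL rested on YH2, and without that library it was -0.33. As a description, *CHI3L1* differed by -0.18 in TL *vs*. YL (standard error 0.21) and *CRTAC1* by -0.09 (standard error 0.20), and without YL2 by 0.000898 and -0.03. In YH *vs*. YL *CRTAC1* differed by -0.02, and by 0.04 without YL2.

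In the comparisons that chose the genes, the fitted changes are given as a description. TH *vs*. YH gave 2.74 for *CHI3L1*, 2.89 for *CRTAC1*, 2.82 for *SLPI* and 1.68 for *CD44*. TH *vs*. TL gave 3.39, 2.96, -0.07 and 2.47 in the same order, and *SLPI* alone of the 4 differed by less than its standard error (0.38) between the Tibetan groups. These comparisons share the TH libraries. Both TH libraries lay above all 6 others for 3 of the 4 genes and for 10.1% of the genes tested, and at least 2 times above for *CHI3L1*, *CRTAC1* and 0.462% of the genes tested.

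**Figure D2:**
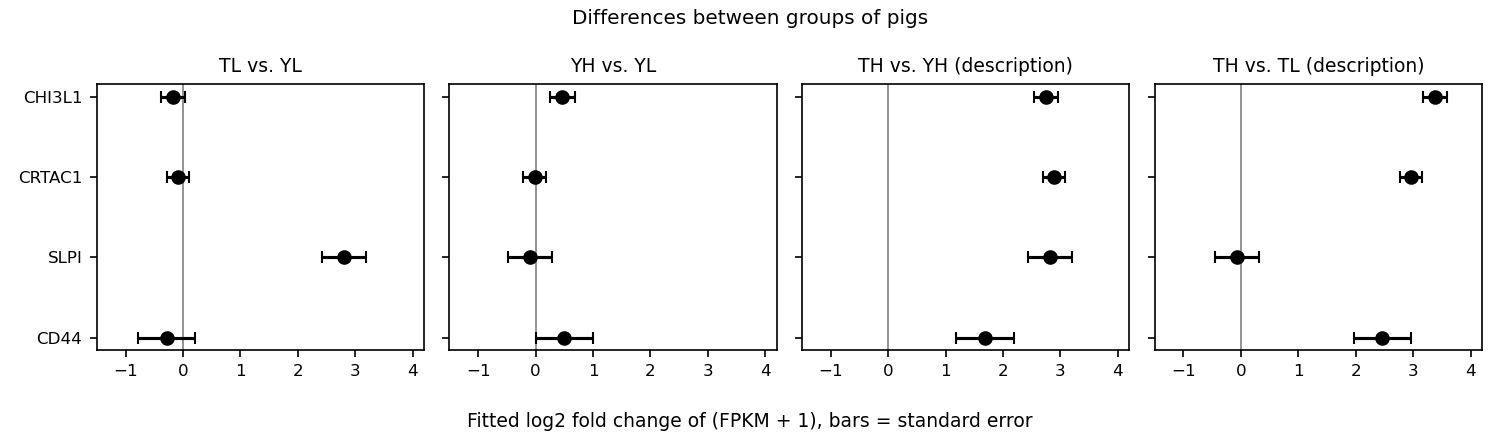
Fitted log2 fold changes of FPKM + 1 (horizontal axis) for the 4 genes in each comparison, with the standard error as bars. In TL *vs*. YL *SLPI* stands at 2.80 and the other 3 genes between -0.28 and -0.09, and in YH *vs*. YL all 4 lie between -0.09 and 0.50; the values of *CHI3L1* and *CRTAC1* and both comparisons with TH are a description.

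The relatives and partners of each gene were followed in fixed lists, and no gene of these lists was called in any comparison (TH *vs*. YH called 0.0336% of all genes and TH *vs*. TL 0.0504%). For *CHI3L1* the list held 11 genes, chitinase relatives and binding partners, of which 5 passed the filter of 1 FPKM in 2 libraries. Its neighbour *CHIT1*, the active chitinase of macrophages, was at 0.0428 FPKM or less in every library, and *CHIA* at 0.0251 or less. *CHID1*, a relative found in many tissues, was at 32.8 and 25.5 FPKM in TH and 17.3 to 43.2 elsewhere, and *TMEM219*, known as a co-receptor for *CHI3L1* protein, at 28.1 and 19.1 against 14.6 to 19.3. *IL13RA2*, the receptor chain that *CHI3L1* protein binds, was at 1.82 and 1.504 FPKM in TH and 0.379 to 1.81 elsewhere. *OVGP1*, an oviductal glycoprotein related to the chitinases, was at 7.39 and 2.51 FPKM in TH and 0.759 to 2.28 elsewhere, so that TH was above all others, except with equal FPKM sums. The median of the 5 tested genes was 0.65 in TH *vs*. YH and -0.15 in TL *vs*. YL, beside -0.03 and 0.02 over all genes.

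For *SLPI* the list held inhibitors with the same WAP domain, inhibitors of elastase and binding partners, 9 of them in the table and 5 tested. *PI3*, the closest relative and the next annotated gene on chromosome 17, was at 0.0991 FPKM or less in every library. *WFDC1* was at 11.5 and 14.3 FPKM in TH and 5.32 to 19.2 elsewhere, and *WFDC3* at 3.24 and 2.60 against 2.07 to 3.97. *WFDC2*, an epithelial relative, was at 67.0 FPKM in YL2 and at 0.0689 or less elsewhere. The pattern of *SLPI* by breed was therefore seen in none of the relatives named here. *ANXA2*, which encodes a membrane protein that binds *SLPI* protein, was at 355 and 275 FPKM in TH and 52.7 to 123 in the other libraries, with TL at 72.7 and 77.6. As for *CD44*, YH2 was the highest library outside TH, and *ANXA2* overlapped with equal FPKM sums. Of the proteases that *SLPI* inhibits, *ELANE* (neutrophil elastase) was at 0.259 FPKM or less. *MCT7*, a mast cell tryptase and the only tested gene of that list, was at 18.3 and 8.14 FPKM in TL, 1.68 and 8.42 in TH and 0.917 or less in Yorkshire pigs, which placed Tibetan libraries above Yorkshire libraries as for *SLPI*, though not with equal FPKM sums (TL *vs*. YL log2 fold change 3.06, limma adjusted p = 0.243).

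For *CD44* the enzymes that make and break hyaluronan went both ways. Of 6 tested genes, the median in TH *vs*. YH was -0.03, equal to that of all genes at 2 decimals, and in TH *vs*. TL it was -0.00. *UGP2* and *UGDH*, which supply the sugar precursors, were at 17.7 and 17.4 FPKM and at 12.3 and 10.4 FPKM in TH, against 19.6 to 24.9 and 4.94 to 9.05 elsewhere. *UGP2* was thus below all others in TH, but not in RPM or with equal FPKM sums, and *UGDH* above all others, but not under any other scaling. *HYAL2*, a hyaluronidase of the cell surface, was at 16.1 and 20.0 against 11.2 to 17.2. The synthase *HAS1* was low, with 2.11 and 0.987 FPKM in TH, no more than 0.842 elsewhere, and was not tested. Of the 9 tested genes for other hyaluronan receptors and binders, *VCAN* (versican) and *TNFAIP6* were above all others in TH by 1.276 and 1.54 times, and *HAPLN3*, a link protein, was below all others at 10.1 and 7.19 against 14.4 to 27.5. *HAPLN3* kept this order under all 4 scalings, while *VCAN* and *TNFAIP6* overlapped with equal FPKM sums and *VCAN* also in RPM.

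The ligands, linkers and sheddases of *CD44* gave 17 tested rows with a median of -0.08 in TH *vs*. YH and 0.11 in TH *vs*. TL. *HBEGF*, a growth factor that *CD44* protein can present, was at 9.72 and 10.6 FPKM in TH and 2.35 to 4.79 elsewhere. *MSN* (moesin), which links the tail of *CD44* to actin, was at 62.7 and 75.5 against 22.8 to 47.1, while the related linkers *EZR* and *RDX* overlapped. Both *HBEGF* and *MSN* overlapped with equal FPKM sums, and *MSN* also in RPM. *SPP1* (osteopontin), a ligand, was at 16.7 and 11.6 FPKM in TH and at 22.5 in YL2, with 0.484 to 1.53 in the other 5 libraries. The sheddases *ADAM10*, *ADAM17* and *MMP14* overlapped between TH and the rest, for example *MMP14* at 8.19 and 8.85 against 6.02 to 9.86. *TIMP1*, an inhibitor of such proteases, was at 150 and 77.8 FPKM in TH and 8.42 to 41.0 elsewhere, again with YH2 second.

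**Figure D3:**
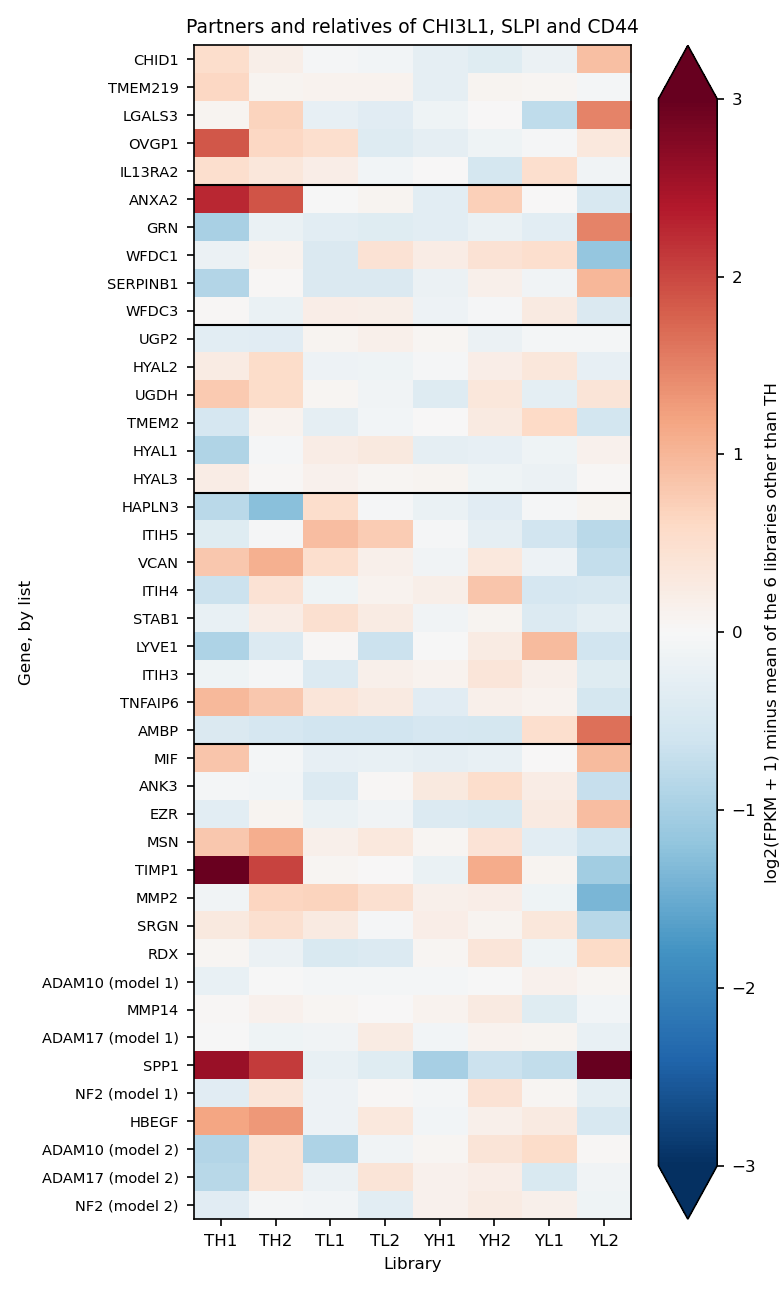
Relatives and partners of *CHI3L1*, *SLPI* and *CD44* that were tested (rows, in 5 lists parted by lines) in each library (columns), as log2(FPKM + 1) minus the mean of the 6 libraries other than TH. *ANXA2*, *TIMP1* and *HBEGF* are high in both TH libraries, which held for none of them with equal FPKM sums, and *SPP1* is high in TH and in YL2.

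For *CRTAC1* the list of the Nogo receptor axis had 6 tested genes. *RTN4*, which encodes Nogo itself, was at 96.9 and 97.5 FPKM in TH and 58.5 to 101 elsewhere, while the receptor *RTN4R* was at 1.55 FPKM or less and lay at 0.269 and 0.407 in TH. *ITFG1*, which like *CRTAC1* encodes a protein with FG-GAP repeats, was at 4.04 and 10.04 in TH and 10.99 to 17.1 elsewhere, below all others, and overlapped with equal FPKM sums. *ITFG2*, also with FG-GAP repeats, was at 4.14 and 3.36 in TH and 2.74 to 3.34 elsewhere, and overlapped under every other scaling. *LINGO1*, a co-receptor, was at 1.20 and 1.45 in TH and 1.33 to 2.32 elsewhere. The median of the 6 genes was -0.05 in TH *vs*. YH.

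Cytokine signals known to raise *CHI3L1*, *SLPI* and *CD44* were followed in a list of 24 genes, of which 22 were in the table. Of the 18 tested rows 8 were higher in TH *vs*. YH, with a median of -0.09, and 13 in TH *vs*. TL, with a median of 0.14. *CCL2* was at 156 and 91.2 FPKM in TH, 52.5 in YH2 and 8.02 to 25.4 in the other 5 libraries, and overlapped with equal FPKM sums. *IL6*, *IL1B* and *TNF* were at 0.380 FPKM or less in every library. *NFKB1* was at 46.1 and 48.7 in TH and 28.9 to 89.7 elsewhere, and *NFKBIA*, *CEBPD* and *SOCS3* overlapped as well by FPKM. Under each other scaling *NFKBIA* was below all others in TH.

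Markers of cells known to make these proteins were read beside the levels of the 4 genes. The 10 macrophage genes summed to 45.0 and 69.3 FPKM in TH and 74.6 to 131 in the other libraries. The lower sum in TH rested on *C1QA*, at 4.49 and 13.1 in TH against 22.9 to 45.5, and *C1QC*, at 6.17 and 20.4 against 22.9 to 53.3. The other 8 genes summed to 34.4 and 35.8 in TH and 22.6 to 50.8 elsewhere, and 6 of the 9 tested genes of the list were higher in TH *vs*. TL (median 0.21) and 3 in TH *vs*. YH (median -0.31). The 10 neutrophil genes summed to 10.3 and 10.7 in TH and 4.34 to 12.9 elsewhere, with *MPO* and *MMP8* at 0.0369 or less. Their sum did not separate TH from YH2 (11.98) or YL2, but was above TL (4.34 and 6.81). Of the 4 tested genes of the list, 3 were higher in TH *vs*. YH (median 0.52) and 3 in TH *vs*. TL (median 1.11). The 10 lymphocyte genes summed to 8.68 and 9.02 in TH, 30.5 and 35.4 in YH, and 11.9 to 15.5 in the lowland libraries, with *CD2* at 0.491 and 0.276 in TH against 1.42 to 4.82. The 10 chondrocyte genes summed to 2.50 and 6.99 in TH and 1.502 to 2.94 elsewhere, and the cartilage genes *COL2A1*, *COL9A1* and *ACAN* were at 0.0129 or less in every library. The 6 airway and secretory epithelium genes summed to 0.0810 to 2.05 outside YL2, where the sum was 17.1, and none passed the filter, and the 8 mesothelium genes to 6.94 and 7.36 in TH, 0.556 to 6.10 in 5 other libraries and 52.9 in YL2. Neither epithelial list separated the breeds as *SLPI* did, but other lists did. The 5 smooth muscle genes summed to 231 to 369 FPKM in Tibetan and 108 to 217 in Yorkshire libraries, and the 6 blood genes to 1240 to 3115 and 533 to 1068. The breeds overlapped with equal FPKM sums in both, and for smooth muscle also in RPM. The 12 fibroblast rows summed to 726 to 922 FPKM in TL against 277 to 347 for YL. TL stayed above YL under every scaling tried, and all 11 tested rows were higher in TL *vs*. YL (median 1.37), none of them called. The sums of the smooth muscle, blood, ventricular and serine protease lists were also above YL in TL under every scaling tried. The fibroblast sum was 279.6 and 819 FPKM in TH1 and TH2, and 394 and 480 in YH1 and YH2. The part of these lists in the level of *SLPI* was not tested.

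The 10 atrial genes summed to 6845 and 5622 FPKM in TH and 491 to 2894 in the other libraries. The order was lost in RPM and with equal FPKM sums. Of the 10, 3 were above all others in TH (10.1% of all genes tested were), and the median log2 fold change was 0.06 in TH *vs*. TL and 0.62 in TH *vs*. YH. The sum was carried by *MYL7*, at 4283 and 3207 in TH against 337 to 2578 (overlapping with equal FPKM sums), and by *NPPA*. The other 8 genes summed to 298 and 269 in TH and 108 to 420.3 elsewhere. *NPPA*, the atrial natriuretic peptide, was at 2263 and 2146 in TH against 23.1 to 108, and *SLN* (sarcolipin) at 56.5 and 16.3 against 0.812 to 3.52. *NPPA* and *SLN* were above all others under every scaling tried, as were *CHI3L1* and *CRTAC1*, while *MYH6*, on the same list, was at 20.6 and 18.4 in TH and 2.60 to 246 elsewhere. The 4 ventricular genes summed to 8594 and 6369 in TH and 4120 to 11227 elsewhere. The blood sum was also above all others in TH, at 3115 and 1635 FPKM against 533 to 1409, as were the sums of smooth muscle (369 and 335 against 108 to 242) and of the 7 endothelium genes (207 and 203 against 104 to 188). With equal FPKM sums none of these was, nor was smooth muscle in RPM, and endothelium was so under no other scaling. The sources used here do not give the site of the heart that was sampled, and the part of these differences in the levels of *CHI3L1*, *CRTAC1* and *CD44* was not tested. In TL the atrial sum was 1714 and 2888, within the range of the Yorkshire libraries. Of the 10 atrial genes 8 were higher in TL *vs*. YL, with a median of 0.81, beside 0.02 over all genes. The part of the atrial genes in the level of *SLPI* was not tested.

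**Figure D4:**
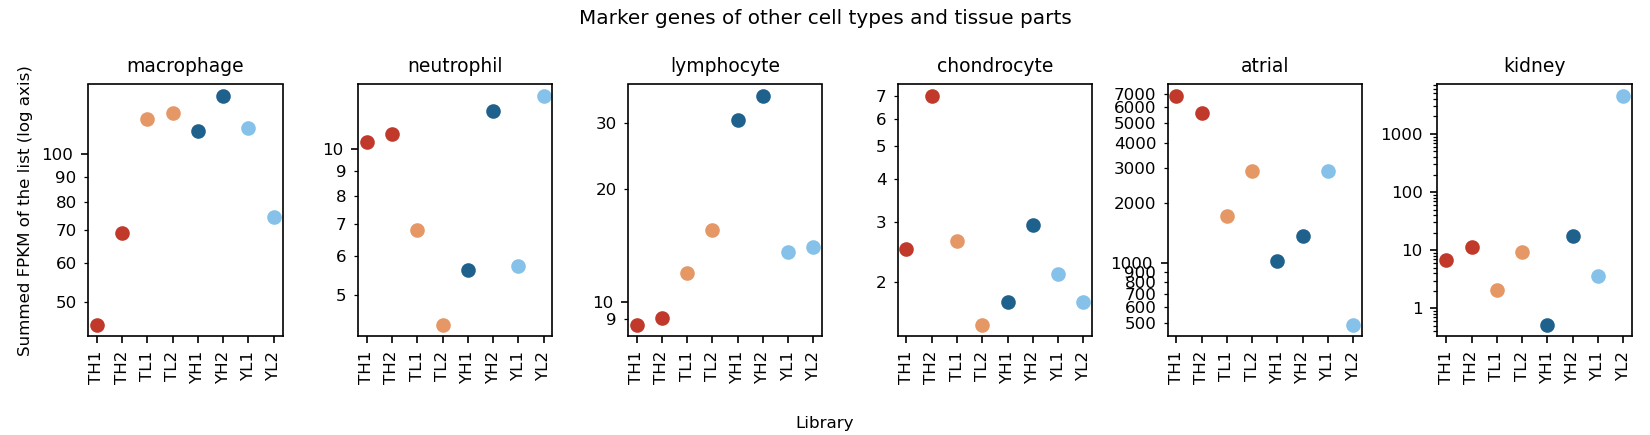
Summed FPKM (vertical axis, log scale) of marker genes of other cell types and tissue parts in each library. The macrophage sum was lowest in TH (45.0 and 69.3) through *C1QA* and *C1QC*, the lymphocyte sum was lowest in TH (8.68 and 9.02), the atrial sum was highest in TH (6845 and 5622, lost in RPM and with equal FPKM sums) through *MYL7* and *NPPA*, and the kidney sum was 4513 in YL2.

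Among the 11620 genes with at least 10 reads in 2 libraries, the 5 genes most like each of the 4 were found by Pearson correlation of log2(FPKM + 1) over the 8 libraries, a description in which both TH libraries carry most of the weight. *CHI3L1* and *CRTAC1* were each other's nearest gene (r = 0.99), but over the 6 libraries other than TH their correlation was 0.41. Without YL2, *MAGI1* was nearest to *CHI3L1* and *CD151* to *CRTAC1*, whose 5 nearest genes then did not hold *CHI3L1*. By Spearman correlation neither of the pair was among the 5 nearest of the other. Next to *CHI3L1* came *CAPN2* and *ZMYM5*, and *ZDHHC14* was also among the 5. *ZDHHC14*, a palmitoyltransferase, was at 4.34 and 2.93 FPKM in TH and 0.259 to 0.658 elsewhere, whereas *CAPN2* (calpain 2) was at 54.6 and 58.6 against 38.8 to 44.5, and overlapped under each other scaling. Next to *CRTAC1* came *ZDHHC14*, *CD151*, *HAMP* and *CRABP2*. *HAMP*, which encodes the iron hormone hepcidin, was at 35.2 and 50.3 in TH and 0 to 2.09 elsewhere, and *CRABP2*, a retinoic acid carrier, at 1.88 and 1.12 against at most 0.175. *ZDHHC14*, *HAMP* and *CRABP2* stayed above all others in TH under every scaling tried.

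The genes most like *SLPI* that are named here separated the breeds by FPKM, and *FOS* did so under every scaling tried. *LEPREL2*, a collagen prolyl hydroxylase, came first (r = 0.99) at 6.10 to 6.69 FPKM in Tibetan and 2.40 to 3.46 in Yorkshire libraries. *FOS*, an immediate early gene, was at 53.8 and 85.5 in TH, 50.9 and 42.0 in TL and 3.40 to 5.98 in Yorkshire pigs, with TH above TL by FPKM but under no other scaling. *HTRA1*, a secreted serine protease, was at 33.9 to 37.2 against 22.5 to 25.9, and *RNASE1* was also among the 5. The breeds overlapped with equal FPKM sums in *LEPREL2*, *HTRA1* and *RNASE1*, and also in RPM in *LEPREL2* and *HTRA1*. The genes most like *CD44* shared the intermediate level of YH2. *IGSF23* was at 15.9 and 20.4 in TH, 7.25 in YH2 and 0.169 to 1.71 elsewhere. *DNASE1L1* was at 29.1 and 28.6 in TH, 15.8 in YH2 and 6.56 to 9.26 elsewhere, and *FCN1*, also on the neutrophil list, at 2.64 and 2.45, 1.58, and 0.195 to 0.591. *MAPRE1* and *SLCO6A1* completed the 5, and all 5 overlapped with equal FPKM sums.

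**Figure D5:**
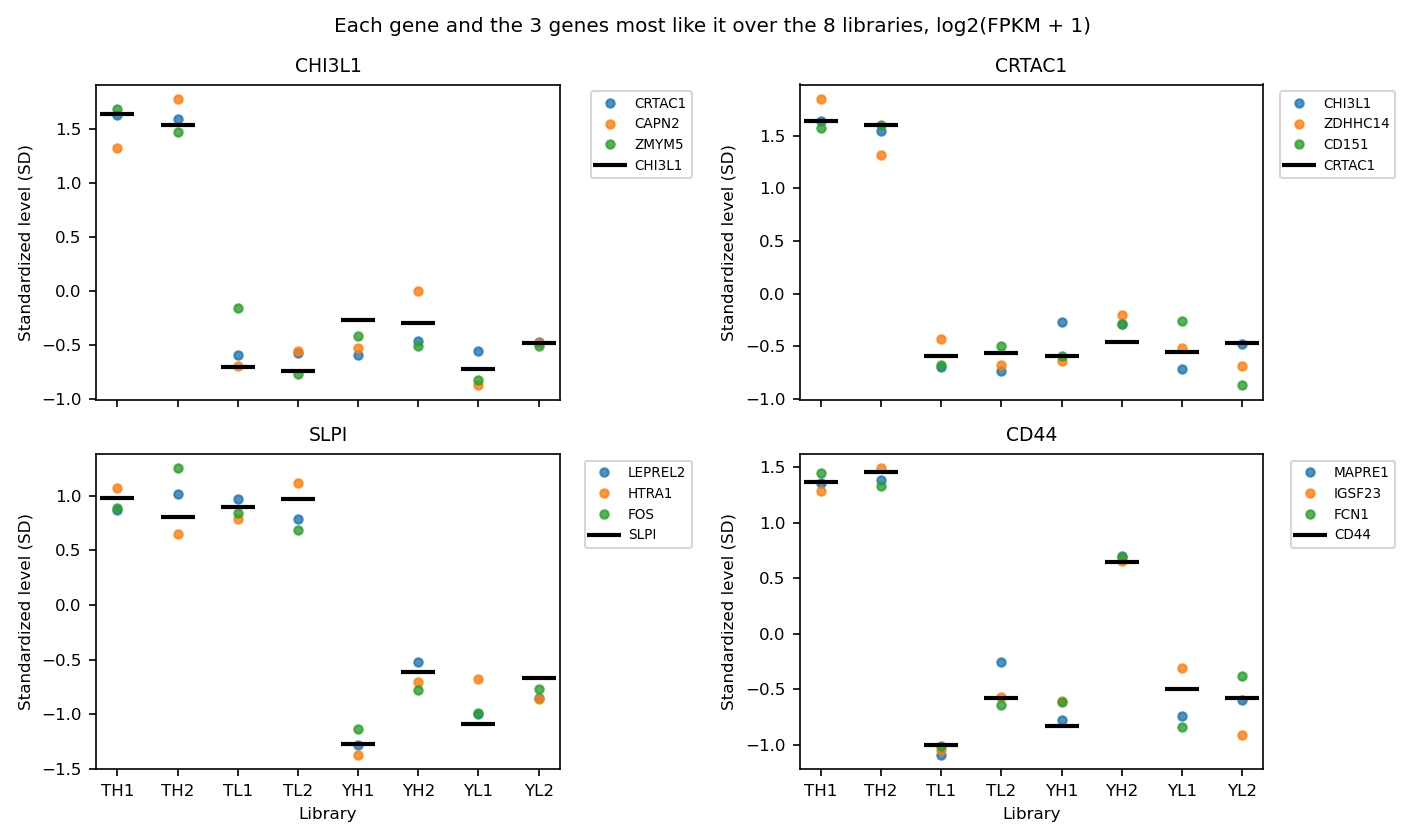
Each of the 4 genes (black bars) and the 3 genes most like it (points) in the 8 libraries, as log2(FPKM + 1) standardized over the libraries (vertical axis, in SD). The genes beside *SLPI* are high in all 4 Tibetan libraries, and those beside *CD44* lie between TH and the rest in YH2, where *CD44* was at 42.6 FPKM.

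The genes next to the 4 on their chromosomes were also read. Of the 4 neighbours on each side, both TH libraries were above all others in 2 of 8 beside *CHI3L1* (*MYBPH* and *VAMP4*), 1 of 8 beside *CD44* (*TRIM44*) and 0 of 8 beside *SLPI*, where 5 of each 8 were tested, beside 10.1% of all genes tested. *VAMP4* overlapped in RPM and with equal FPKM sums, and *TRIM44* under every other scaling. Beside *CHI3L1*, *MYBPH*, which encodes a myosin binding protein, was at 1.24 and 2.80 FPKM in TH, with 0.297 as its highest value elsewhere, and overlapped only with equal FPKM sums. *MYBPH* is listed at the same coordinates as *ADORA1*, at 1.82 and 1.90 in TH and 0.411 to 1.90 elsewhere, so the assignment of reads between these 2 is uncertain. Beside *SLPI*, *MATN4*, a matrix protein, was at 1.49 to 4.52 FPKM in Tibetan and 0.350 to 0.848 in Yorkshire libraries, which is the order of *SLPI* and of 4.57% of all genes tested, and was lost in RPM and with equal FPKM sums. The scaffold of *CRTAC1* carries 1 other gene, *GOLGA7B*, at 0.434 FPKM or less.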

How the data were processed

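RNA of heart from 4 groups of pigs was sequenced, with 2 libraries per group. Per the submitters' processing notes and the study's methods, the authors aligned reads to Sscrofa10.2 with TopHat 2.0.9 and computed FPKM with Cufflinks. The deposited table of all genes gives each library's FPKM and a signal that the authors scaled from read counts; dividing the signal by its smallest step gave whole numbers, within 0.01 reads, for at least 99.7% of values under 50 reads. These reads served for depth and the reads of single genes. The columns of the authors' group means and ratios were not used. YL1 and YL2 were taken as YL by title and breed, although their descriptions name the file of TL.

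Groups were compared with limma 3.58.1 (R 4.3.3, moderated with a trend on the mean) on log2(FPKM + 1), with all 8 libraries in 1 fit, for 11913 genes, those that reached 1 FPKM in 2 libraries or more. The pseudocount of 1 understates the fold change of low genes. P-values were two-sided and adjusted over all genes tested by the Benjamini-Hochberg method, and calls needed an adjusted p below 0.01 with a log2 fold change above 1 in size. The fit was also run on simulated data, and the outcome is not given here. A single gene compared by permutation of 2 against 2 libraries could not go below p = 0.333. Intervals cover counting error only. The other tools were Python 3.11.15, numpy 2.4.6, pandas 2.3.3 and matplotlib 3.10.9.

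The 4 genes and the lists were chosen with earlier results of these data known. From each list, genes called in a comparison were named, otherwise at most 4 of the highest mean FPKM and any with both TH libraries at least 2 times above or below all others; relatives and partners singled out beyond that were chosen after their values were seen. Of the symbols, 14256 are those of the deposited table and 1025 those of a list of gene names. No sequence was used here. Of the genes most like each of the 4, 2 are not reported here.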

Additional observations from a re-analysis of the deposited data

How the results depend on the processing

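The alternatives were a smaller pseudocount (0.1), all genes without a filter, a mean of at least 10 FPKM (which leaves out *CHI3L1* and *CRTAC1*), median-ratio scaling, equal FPKM sums, no trend, only the 4 libraries compared, a replicate block and each library left out in turn. Scaling shifted the median of all genes in TH *vs*. YH to -0.13 (median-ratio) and -0.50 (equal sums), from -0.03. No alternative called *SLPI* or *CD44* in TL *vs*. YL or YH *vs*. YL, and 61 of their 64 fitted values kept their sign. Over all 4 genes 6 values turned, *CHI3L1* in TL *vs*. YL without YL2 (0.000898), and, in YH *vs*. YL, *CRTAC1* (0.069 without YH1, 0.04 without YL2), *SLPI* (0.42 without YH1, 0.23 without YL2) and *CD44* (-0.33 without YH2). Leaving out a library gave a range of 2.47 to 3.12 for *SLPI* and -0.36 to 0.000898 for *CHI3L1* in TL *vs*. YL, and in YH *vs*. YL of -0.11 to 0.069 for *CRTAC1*, -0.61 to 0.42 for *SLPI* and -0.33 to 1.32 for *CD44*.

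The log2 ratio of the lowest TH library to the highest other library was 3.73 for *CHI3L1*, with 3.602 under median-ratio scaling, 1.88 with equal sums, 3.09 in RPM and 3.73 to 3.89 with a library left out. For *CRTAC1* it was 5.71, with 5.42, 3.45, 4.67 and 5.71 to 5.84 in the same order. For *SLPI* it was -0.26, with -1.55 with equal sums, -0.55 in RPM and -0.26 to 0.01 with a library left out (0.0053 without TH2). For *CD44* it was 0.83, with 0.57, -1.25 and 0.22, and 0.83 to 2.15 with a library left out (2.15 without YH2). The gap of *CHI3L1* between YH and the lowland libraries turned with equal sums (-0.13).

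Over all genes, equal sums called 97 genes in TL *vs*. YL, 69 in YH *vs*. YL, 38 in TH *vs*. YH and 30 in TH *vs*. TL, against 1, 0, 4 and 6. With only the 4 libraries compared there were 2 in TL *vs*. YL and 11 in TH *vs*. TL, and a pseudocount of 0.1 gave 1 in YH *vs*. YL. With a library left out the counts ranged from 1 to 305, 0 to 305, 3 to 6 and 4 to 13, the 305 being without YL1, when YL is YL2 alone. The lone library is then assumed to vary like the other groups. The cause of these changes was not tested.

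Replicate numbers do not pair the libraries: deviations of same-numbered libraries correlated at -0.08 to 0.07. With the replicate block, *SLPI* in TL *vs*. YL kept 2.80 (limma adjusted p = 0.223), no call of *SLPI* or *CD44* changed, and 1, 0, 3 and 4 genes were called over all.

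Of the 5 genes most like each gene, Spearman correlation shared 1, 0, 0 and 0, and leaving out YL2 shared 1, 1, 2 and 2, for *CHI3L1*, *CRTAC1*, *SLPI* and *CD44*. The last ratios of *SLPI* and *CHI3L1*, the counts and shares without YL2, the sums of part of a list or under other scalings and the order of the breeds in single genes were alternatives chosen after seeing the data. The planned count tests were not run, since 19 scaled values were under 1 read. Depth limits *CHI3L1* and *CRTAC1* outside TH, where a library held at most 37 and 6 reads.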
